A study of Mus musculus with 8 samples.

Results

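Genes of blood clotting and of fibrin breakdown, 9 in all, were read in the mouse left ventricle after a low salt diet. They were tissue factor (F3) and its inhibitor Tfpi, the coagulation factors F8, F10 and F13a1, the endothelial anticoagulant receptors Thbd and Procr, and the plasminogen activators Plat and Plau. All probes that carry one of these gene names and are not controls were taken, which gave 15 of the 39429 probes of the array, and 8 of the 9 genes entered the test over 18250 genes. The genes were selected on log2 intensity differences between the diets in these same 8 mice, so every difference between diets given here for these 9 genes is a description and supports nothing further.

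The study measured total RNA of the homogenised left ventricle (apex, septum and free wall) of male mice of the inbred strain C57Bl/6j on Agilent expression arrays with 2 dyes. The low salt group held 4 mice fed chow with 0.05% sodium for 8 weeks, and the normal salt group held 4 mice fed chow with 0.4% sodium over the same 8 weeks. All 8 mice were killed at 16 weeks of age and carried no stated genetic change. The question was how dietary sodium alters gene expression in the ventricle. Each array carried 2 mice of 1 diet, mice 1 and 3 in the dye Cy3 and mice 2 and 4 in Cy5, so the array and its place on the slide cannot be told apart from the diet except through the 2 arrays per diet.

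Clotting starts when tissue factor, a receptor outside the vessel lumen, meets blood and with factor VII activates factor X. Activated factor X with its cofactor makes thrombin, factor VIII speeds this loop as the cofactor of factor IX, and factor XIII cross-links the fibrin that thrombin forms. Endothelial cells hold this in check through Tfpi, thrombomodulin (Thbd) and the protein C receptor (Procr), while tissue and urokinase plasminogen activators (Plat, Plau) turn plasminogen into the protease that dissolves fibrin. In mice, factor VIII is made mainly by endothelial cells, and most circulating clotting factors come from the liver.

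F8 and F10 are among the genes for which the choice of probe decides the reading. Their probe sequences are shown, 5′ to 3′ as the array design gives them. The Tfpi probes also differed among themselves and are described below. Both F8 probes lie on the minus strand of the X chromosome in mm9, at chrX:72455821-72456709 (a span longer than the 60-base probe) and chrX:72577870-72577929, with 121160 bases between them. Both F10 probes lie on the plus strand of chromosome 8, at chr8:13055774-13055833 and chr8:13056223-13056290. No exon or untranslated region was assigned, because no annotation of that build was used.
F8, A_51_P289239: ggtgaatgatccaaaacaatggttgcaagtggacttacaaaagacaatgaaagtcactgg
F8, A_55_P2072493: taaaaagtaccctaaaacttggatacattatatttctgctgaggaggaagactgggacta
F10, A_51_P174961: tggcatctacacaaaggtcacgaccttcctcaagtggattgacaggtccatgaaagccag
F10, A_55_P2172934, first 30 bases: AGAAAGAAAGAAAGAAAGAAAGAAAGAAAG
Capitals mark an unbroken run of only A and G, which fills all 60 bases of the last probe. The longest such run was 5 bases in the other F10 probe.

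Whether a gene could be read at all came first. Of the 15 probes, 10 stood well above background in all 8 samples by the scanner's own call, and 11 passed the filter of at least 4 samples. The 4 probes below it were the second F8 probe (0 of 8 samples), the ordinary F10 probe (1 of 8), the second F13a1 probe (1 of 8) and the only Plau probe (2 of 8). Plau was therefore at background in most samples, F10 was above it only through the A and G repeat, and F8 was read by a probe that cleared background in 2 of 4 low salt and 4 of 4 normal salt mice. Over all spots, 53.0% to 66.3% were well above background per sample, the median spot intensity was 116 to 147 against a median background of 15.5 to 33.5, and 1 spot was saturated in 1 sample. Markers of ventricular cardiomyocytes, the muscle cells of the tissue named in the labels, were measured for 8 of 8 listed genes. With 4 arrays, precision was limited throughout.

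Values are log2 normalised intensities, and differences are low salt minus normal salt with the standard error of the linear model. Among the 8 genes in the test, 5 were lower and 3 higher on low salt, with a median difference of -0.16, against 0.012 over all genes, of which 47.3% were lower. F10 is among the 5 only through its A and G repeat probe (-0.30). The count and the median thus include a probe whose reading of the F10 transcript was not tested. F8 was the 1 gene past an adjusted p of 0.05 (limma), and 0.805% of all genes tested passed, 0.0384% as lower and 0.767% as higher. The diets did not overlap for F8 and Thbd, both lower on low salt; 4.78% of all genes were lower without overlap and 8.03% higher. F8 and Thbd also had the only unadjusted p-values under 0.05 among the 8, as did 11.2% of all genes.

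**Figure D1:**
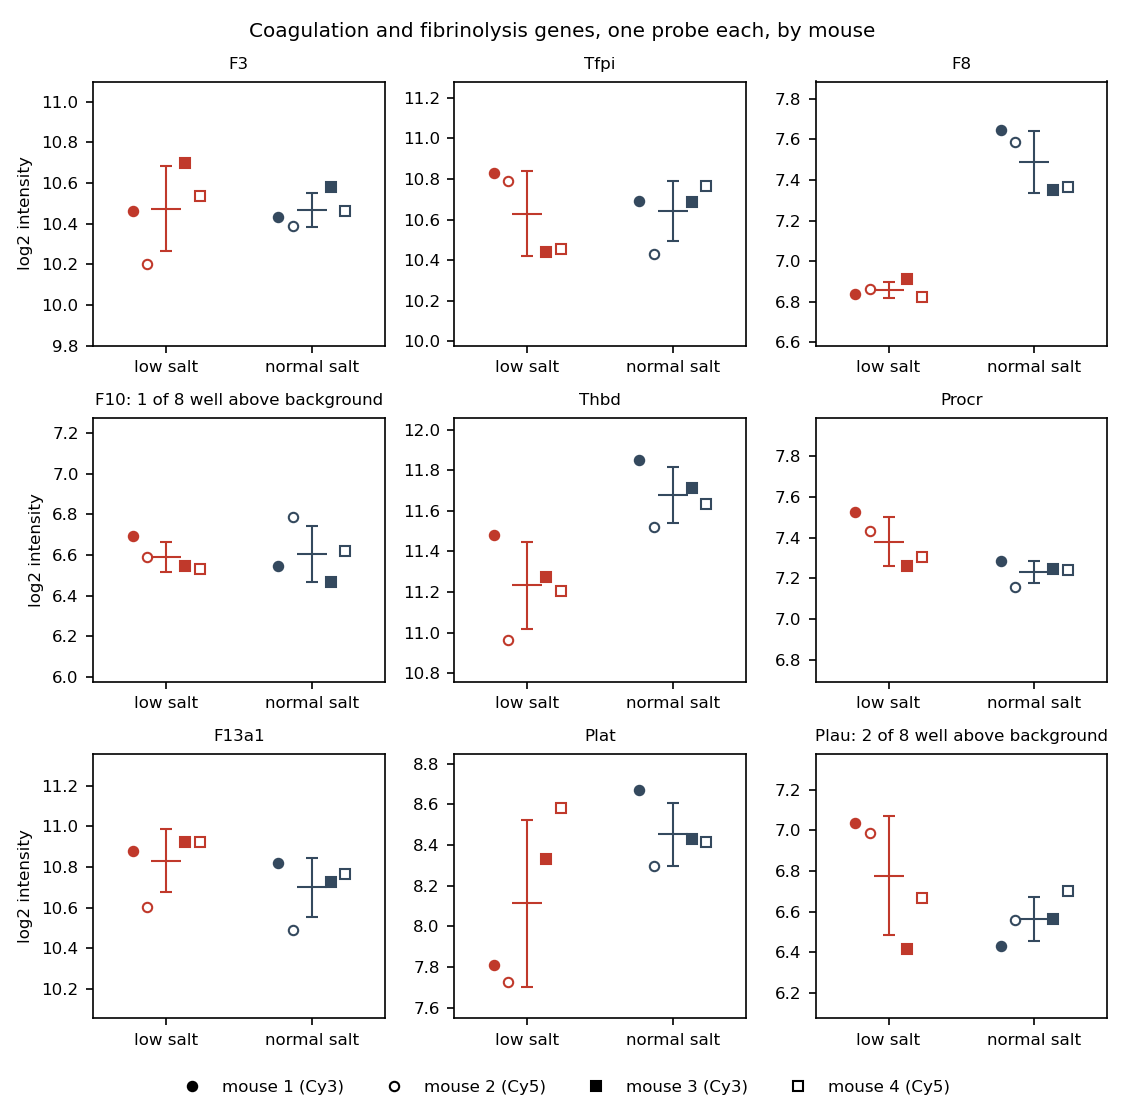
Log2 normalised intensity (vertical axis) of 1 probe for each of the 9 genes in the 4 low salt mice (left) and the 4 normal salt mice (right), with the mean and SD. F10 is drawn from its ordinary probe, near background. Only F8 and Thbd separate the diets. The low salt pair on one array (mice 1 and 2) stands apart from the other pair for several genes. It lies below that pair for genes such as Plat and above it for genes such as Plau, Tfpi and Procr.

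Tissue factor, the trigger of clotting, did not differ between the diets beyond its error. F3 (probe A_55_P1971889, chr3:121437717-121437776, plus strand) had 10.46, 10.20, 10.70 and 10.54 in low salt mice 1 to 4, against 10.43, 10.39, 10.58 and 10.46 in normal salt mice 1 to 4. The groups overlapped, and the difference was 0.01 ± 0.12 (adjusted p = 0.987, limma). It was 0.15 with the low salt 1 and 2 array left out and -0.14 with the 3 and 4 array left out. The second F3 probe, A_65_P08971, read 7.81 to 8.15 on low salt and 7.86 to 8.10 on normal salt, with a difference of 0.03 ± 0.11 (adjusted p = 0.946, limma with every probe tested on its own, where 0.861% of probes passed). With all mice, both probes of the gene gave a difference smaller than its error. The patterns most like F3 over the 8 samples were those of Plxna2 (r = 0.9959), Hspa4 (0.9639) and Pnpla7 (0.9595). With 8 points and 14677 genes searched, every gene described here had such close matches. Only each dye's mean was subtracted for these patterns, so any difference between diets stayed in them.

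Tfpi, the inhibitor of tissue factor and factor X, was read by 3 probes on the minus strand of chromosome 2 that did not give 1 answer. The probe with the highest intensity, A_66_P132295 (chr2:84273059-84273118), had 10.83, 10.79, 10.44 and 10.45 in low salt mice, against 10.69, 10.43, 10.69 and 10.76 in normal salt mice. Its difference was -0.01 ± 0.15 (adjusted p = 0.979, limma). A_55_P2095360, which the design assigns to the same transcript variant, differed by 0.15 ± 0.17 (adjusted p = 0.768), and its groups overlapped too. Most like A_66_P132295 were Ints5 (r = 0.9997), Mtfr1 (0.9818) and Pmf1 (0.9762).

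The third Tfpi probe, A_52_P670263 (chr2:84281022-84281081), is assigned to another transcript variant. It had 9.01, 9.23, 10.21 and 10.37 in low salt mice 1 to 4, against 10.18, 10.25, 10.28 and 10.39 in normal salt mice. Low salt mice 1 and 2 were low, while low salt mice 3 and 4 lay among the normal salt mice. The difference of -0.57 ± 0.30 did not pass (adjusted p = 0.514), and the gap between the arrays within low salt, 1.17 for mice 3 and 4 over mice 1 and 2, was larger than the difference between diets. With the array of low salt 1 and 2 left out the difference was 0.02, and with that of 3 and 4 left out it was -1.15. In the scanner's processed signal the low salt values were 399, 494, 713 and 785 against 823, 876, 807 and 916 on normal salt, and there the groups did not overlap.

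**Figure D2:**
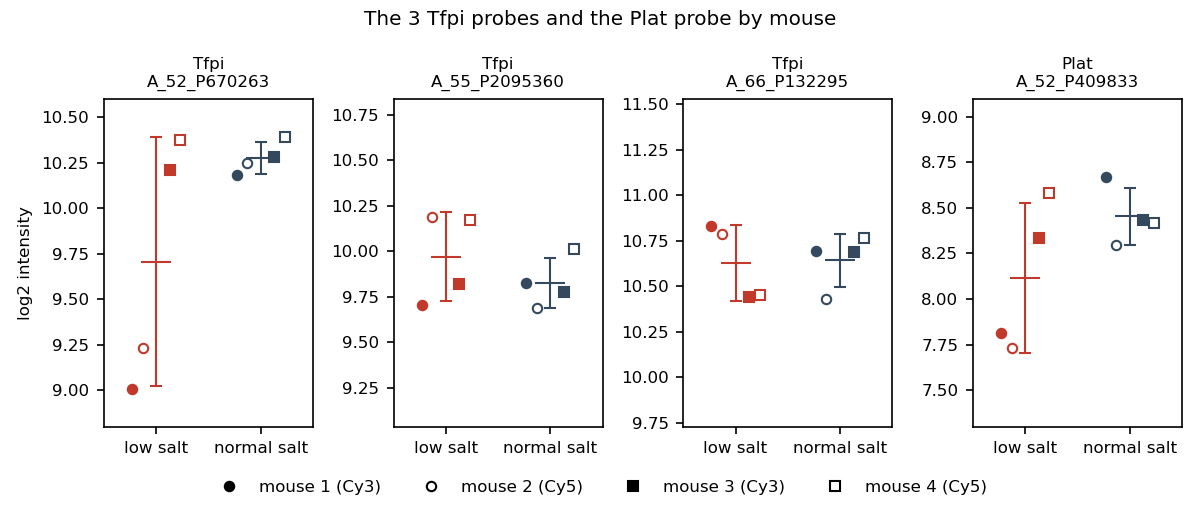
Log2 normalised intensity (vertical axis) of the 3 Tfpi probes and the Plat probe in the 4 low salt mice (left) and the 4 normal salt mice (right), with the mean and SD. Low salt mice 1 and 2 lie below all other mice for Tfpi probe A_52_P670263 (9.01 and 9.23) and for Plat (7.81 and 7.73), but not for the other Tfpi probes. For Tfpi probe A_66_P132295 these mice lie above all other mice (10.83 and 10.79).

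Factor VIII was the gene with the largest difference among the 9, through 1 probe whose signal was lower on low salt. F8 (probe A_51_P289239) had 6.84, 6.86, 6.91 and 6.82 in low salt mice, against 7.65, 7.59, 7.35 and 7.37 in normal salt mice. Every low salt mouse lay below every normal salt mouse, with means of 6.86 ± 0.04 on low salt and 7.49 ± 0.15 on normal salt (SD, n = 4 each). The difference of the measured values was -0.63 ± 0.11 (adjusted p = 0.0470, limma); no fold is given, since 2 of the 4 low salt mice were not well above background. It was -0.62 in the Cy3 mice and -0.63 in the Cy5 mice. The 4 normal salt mice alone were enough for the probe to meet the filter, and a filter on all 8 samples removed it. With a replicate block, mouse number in place of dye, the adjusted p was 0.0499. Leaving out any 1 mouse ended the call, at adjusted p values of 0.0869 to 0.132, while the difference stayed between -0.66 and -0.60. It was -0.50 (adjusted p = 0.134) with the normal salt 1 and 2 array left out and -0.76 (adjusted p = 0.0413) with the normal salt 3 and 4 array left out.

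The low salt values of F8 were close to the lower limit of the measurement. The dimmest probe called well above background read 6.76, 6.47, 6.85 and 6.52 in low salt mice 1 to 4, and the F8 probe itself was called so only in low salt mice 2 and 4, both Cy5. As scanned, the F8 spot had 112, 90.2, 127 and 106 units in low salt mice, against 173, 200, 159 and 163 in normal salt mice, over a local background of 17 to 34 units in both diets. In the scanner's processed signal, which the scanner software also corrects for a spatial trend and for dye, it had 19.9, 22.9, 17.9 and 17.9 in low salt mice against 72.0, 67.0, 42.4 and 43.3 in normal salt mice. The groups separated on all 3 scales, but the size of the difference depended on the background removed. It was -1.504 with the processed signal (adjusted p = 0.0611) and -0.064 with the background model fitted on all spots (adjusted p = 0.184).

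The second F8 probe gave no second reading. A_55_P2072493 read 6.33, 6.38, 6.40 and 6.35 in low salt mice, against 6.46, 6.37, 6.47 and 6.36 in normal salt mice, not well above background in any of them. No fold is given for it. The difference of F8 therefore rests on 1 probe and 1 spot per array.

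The spots above and below the F8 spot in its column of the array showed the same pattern. Mrgpra2a, 1 row above and a receptor gene named here by its place alone, had 7.41, 7.35, 7.28 and 7.08 in low salt mice against 7.78, 7.68, 7.59 and 7.57 in normal salt mice. Olfr1423, 1 row below and an olfactory receptor gene, had 6.49, 6.47, 6.49 and 6.19 in low salt mice against 7.72, 7.58, 7.29 and 7.26 in normal salt mice, well above background in 0 low salt and 4 normal salt mice. The 3 spots in succession were all lower on low salt without overlap, with differences of -0.38, -0.63 and -1.05 from top to bottom. The probes of both neighbours share no run longer than 6 bases with the F8 probe on either strand.

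The wider surroundings of the F8 spot did not move this way. Within 3 rows and 2 columns of it, 32 spots had a median difference of 0.11, with 2 of them lower without overlap (the 2 neighbours) and 1 higher. After the local trend over a wider window was subtracted, the F8 difference was -0.71 (adjusted p = 0.0162). Of the genes searched, Olfr1423 was also the one whose pattern over the 8 samples was most like that of F8 (Pearson r = 0.9925 after each dye's mean was subtracted), followed by Osgin1 (0.9884) and Mthfd1l (0.9845), which stand elsewhere on the array. These 8 points share 4 arrays and 1 normalisation. The difference between diets stayed in them, at -1.05 for Olfr1423, -0.71 for Osgin1 and -0.81 for Mthfd1l. The likeness therefore repeats in part the F8 difference between diets and adds no support to it. What part the place on the array has in the F8 difference was not tested.

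**Figure D3:**
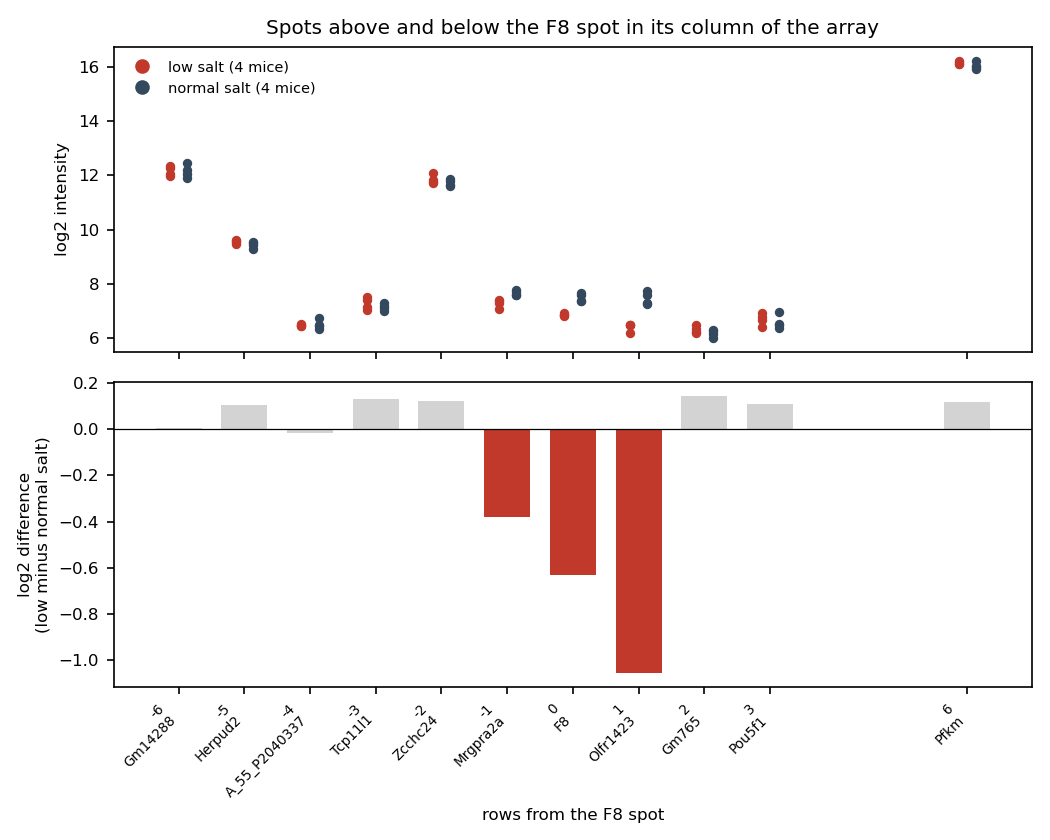
Spots in the array column of the F8 probe, by rows from it (horizontal axis). Above, log2 normalised intensity in the 4 low salt mice (left dots) and the 4 normal salt mice (right dots); below, the difference, low salt minus normal salt, with spots lower without overlap in red. The F8 spot (-0.63) lies between Mrgpra2a (-0.38) and Olfr1423 (-1.05), and the next spots on both sides lie near 0.

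Factor X, on which both starting routes of clotting converge, was near background by its ordinary probe in both diets. That probe, A_51_P174961, had 6.69, 6.59, 6.55 and 6.53 in low salt mice, against 6.55, 6.79, 6.46 and 6.62 in normal salt mice. The groups overlapped, and only normal salt mouse 2 was called well above background. The gene entered the test through the A and G repeat, A_55_P2172934, because the brightest probe of each gene was read. The repeat probe had 14.92, 15.12, 14.74 and 14.82 in low salt mice, against 15.18, 15.15, 15.48 and 14.97 in normal salt mice, a difference of -0.30 ± 0.20 (adjusted p = 0.595, limma).

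The repeat probe of F10 had a lower mean on low salt, as had other probes of the same composition. Whether its pattern over the mice was like theirs was not tested. The array holds 23 probes made only of A and G, and all 23 were well above background in all 8 samples. Some are assigned to the same gene, as for Cplx2, Vash1 and Gcm1, and some to no named gene. They are thus not 23 separate genes. Of the 21 with a value in every sample, 21 had a lower mean on low salt; the differences ran from -1.45 to -0.03 (median -0.51), and the F10 probe's difference was the 20th from the lowest. Whether this probe reads the F10 transcript was not tested, and the ordinary probe gives only a signal near background. The patterns most like the repeat probe were those of Rabep1 (r = 0.9715), Abcb1b (0.9696) and Adamtsl4 (0.9659). Leaving all 23 out left the count of genes past the threshold at 147.

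Thrombomodulin, the endothelial receptor that turns thrombin into an activator of protein C, was lower in every low salt mouse than in any normal salt mouse but did not pass the test. Thbd (A_51_P291417, chr2:148230235-148230294, minus strand) had 11.48, 10.97, 11.28 and 11.21 in low salt mice, against 11.85, 11.52, 11.71 and 11.63 in normal salt mice. The highest low salt value lay just under the lowest normal salt value. The difference was -0.45 ± 0.15, a 1.36-fold lower signal (adjusted p = 0.306; unadjusted p = 0.0154; limma). It was -0.40 in Cy3 mice and -0.49 in Cy5 mice, -0.49 with the processed signal, -0.44 with the low salt 1 and 2 array left out, and -0.46 with the 3 and 4 array left out. Over 29 alternatives it ran from -0.52 to -0.30, and it passed only where the model had no array block. None of 32 spots around it was lower without overlap.

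The protein C receptor, which presents protein C to thrombomodulin, did not follow it. Procr (A_51_P382152, chr2:155580945-155581004, plus strand) had 7.52, 7.43, 7.26 and 7.31 in low salt mice, against 7.29, 7.16, 7.25 and 7.24 in normal salt mice. The low salt values were mostly the higher ones, with mouse 3 among the normal salt mice. The difference was 0.15 ± 0.11 (adjusted p = 0.604, limma). It was 0.05 when the low salt 1 and 2 array was left out, and 0.25 when the 3 and 4 array was. The spot was dim, with 148 to 164 units as scanned on low salt and 140 to 147 on normal salt. The size of the difference depended on the background removed, at 0.30 with the processed signal and 0.02 with the background model fitted on all spots. Most like Procr were Fgf6 (r = 0.9955), Nxf2 (0.9935) and the platelet gene Pf4 (0.9916), which differed by 0.21.

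Beside Thbd and Procr, 12 of 15 endothelial marker genes had a lower mean on low salt (median difference -0.12), and 0 passed the threshold. Their mean level ran from 10.94 to 11.20 in low salt mice and from 11.15 to 11.54 in normal salt mice, with no marker below the filter. Their part in the Thbd and F8 differences was not tested, and in homogenised tissue fewer endothelial cells and less RNA per cell cannot be told apart. The markers differed among themselves: Pecam1, an adhesion molecule of the vessel lining, differed by -0.01, Esam, another, by -0.57 without overlap, and Kdr, a VEGF receptor, by 0.22 (genes chosen after their values were seen). The genes whose pattern was most like Thbd over the 8 samples were Slc16a3 (r = 0.9903), Rnft2 (0.972) and Timp3 (0.9712).

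Factor XIII A, the subunit that cross-links fibrin and that macrophages and platelets carry, did not differ beyond its error. F13a1 (A_51_P507801, chr13:36959214-36959273, minus strand) had 10.88, 10.60, 10.92 and 10.92 in low salt mice, against 10.82, 10.49, 10.73 and 10.76 in normal salt mice. The difference was 0.13 ± 0.14 (adjusted p = 0.748, limma), and mouse 2 was the lowest of its group in both diets. The second probe, A_55_P2186125, 104555 bases away, was well above background only in normal salt mouse 2, at 7.22, and read 6.39 to 6.58 on low salt and 6.29 to 6.67 in the other normal salt mice. Most like the first probe were Gda (r = 0.9813), Cfd (0.9715) and Gusb (0.9564).

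Macrophage markers stood beside it as a list with 9 of 11 measured genes higher on low salt, a median of 0.24 and 0 past the threshold. Their mean level was 9.61 to 9.85 in low salt mice, against 9.44 to 9.63 in normal salt mice, with Cd163 below the filter. Cx3cr1, a chemokine receptor of monocytes and macrophages chosen after its value was seen, had the largest of these differences, 0.90 ± 0.22 (adjusted p = 0.152, limma). Platelet markers had a median of 0.10 over 5 measured genes, with levels of 8.51 to 9.26 in low salt mice, against 8.75 to 8.84 in normal salt mice, and Gp1ba below the filter. Their part in the F13a1 values was not tested.

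Tissue plasminogen activator, released by endothelium to start fibrin breakdown, split the low salt mice by array. Plat (A_52_P409833, chr8:23892531-23892590, plus strand) had 7.81, 7.73, 8.33 and 8.58 in low salt mice 1 to 4, against 8.67, 8.30, 8.43 and 8.42 in normal salt mice. Low salt mice 1 and 2 were lowest of all, and mice 3 and 4 lay within the range of the normal salt mice. The difference was -0.34 ± 0.24 (adjusted p = 0.600, limma). When the low salt 1 and 2 array was left out it was 0.0041, and when the 3 and 4 array was left out it was -0.68 and Plat passed the threshold, a fit in which low salt is 1 array.

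The split of Plat was smaller under 2 other ways of processing, and its cause was not tested. The spot stands in row 3 of the array, where the local trend of the array of low salt 1 and 2 was -0.15 and -0.13 and that of normal salt 1 and 2 was 0.15 and 0.11. With the local trend subtracted, the difference was -0.22 and mice 3 and 4 exceeded mice 1 and 2 by 0.54, against 0.69 without it. In the processed signal Plat had 191, 176, 190 and 252 units in low salt mice, against 250, 176, 207 and 235 in normal salt mice. There, with background, dye and scaling also handled differently, the low salt mice no longer separated by array, and the difference was -0.12. Most like Plat were Ifitm2 (r = 0.9881), Pqlc3 (0.9866) and Clstn1 (0.9807).

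Urokinase, the plasminogen activator of migrating cells, was at background in all normal salt mice. Plau (A_52_P302433, chr14:21662242-21662301, plus strand) had 7.04, 6.99, 6.41 and 6.67 in low salt mice, against 6.43, 6.56, 6.57 and 6.70 in normal salt mice. Only low salt mice 1 and 2, the pair on 1 array, were well above background. No fold or test is given, since low salt mice 3 and 4 were at background too and the gene did not pass the filter. Without the array of those 2 mice the difference was -0.02, against 0.21 with all mice.

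On the normalised scale, several of the 9 genes thus differed at least as much between the 2 low salt arrays as between the diets. Low salt mice 3 and 4 minus mice 1 and 2 was 1.17 for Tfpi probe A_52_P670263, 0.69 for Plat, -0.47 for Plau and -0.36 for Tfpi probe A_66_P132295. It was 0.29 for F3 probe A_55_P1971889, -0.19 for Procr and 0.18 for F13a1. For the F10 repeat probe it was -0.24, smaller in size than that probe's difference between diets of -0.30. For F8 and Thbd the same gap was 0.02, with 2 of the 4 low salt F8 values not well above background. In the log2 processed signal this low salt gap was -0.25 for F8, -0.08 for Thbd and 0.25 for Plat. Between the normal salt arrays, on the normalised scale, mice 3 and 4 minus mice 1 and 2 was -0.26 for F8. It lay between -0.06 and 0.16 for the other probes that passed the filter. Tek, an endothelial receptor chosen after its values were seen, showed the split of Plat, with 7.95, 7.90, 8.85 and 9.07 in low salt mice against 9.06 to 9.26 in normal salt mice. Entpd1, an endothelial enzyme that degrades the platelet activator ADP, had 6.43, 6.54, 6.88 and 7.20 against 6.97 to 7.16. It was well above background in only 6 of 8 samples. Its 6.43 in low salt mouse 1 lay under the dimmest probe called well above background there, 6.76.

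**Figure D4:**
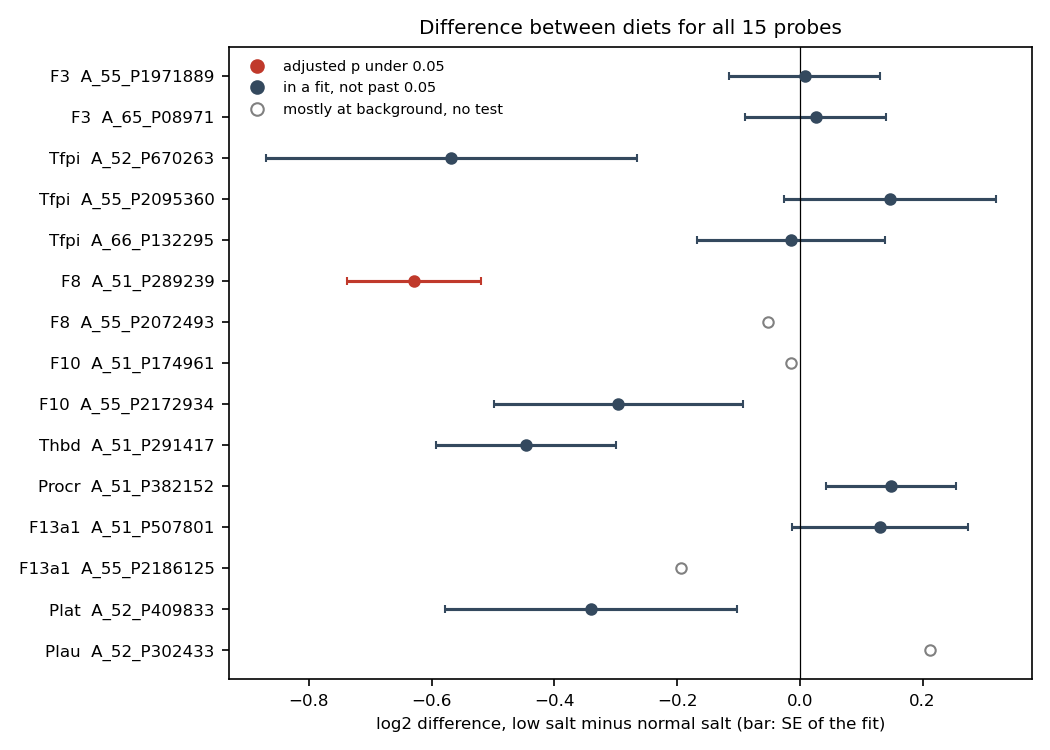
Log2 difference, low salt minus normal salt (horizontal axis), for all 15 probes of the 9 genes, with the SE of the linear model as a bar. Filled points were tested, open points stayed mostly at background and have no test. The F8 probe A_51_P289239 (-0.63) is the only one past an adjusted p of 0.05, and the second F8 probe lies near 0.

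No other listed gene of the pathway passed the threshold. Of 45 such genes of clotting and fibrinolysis, 30 passed the filter, 0 passed an adjusted p of 0.05 (limma; 0.805% of all genes did) and 4 had an unadjusted p under 0.05 (11.2% of all genes did), counts near those shares. Of the 30, 13 were lower and 17 higher on low salt, with a median of 0.03.

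Among clotting factors and their cofactors, 12 of 17 genes were measured, with a median difference of 0.05. F2, F12, F13b, Fgb and Fgg, which are made mainly in the liver, were below the filter. Lman1, the cargo receptor that exports factors V and VIII from the endoplasmic reticulum, had 12.46, 12.23, 12.38 and 12.20 in low salt mice, against 11.99, 11.92, 11.77 and 11.59 in normal salt mice. Every low salt mouse was higher, by 0.50 ± 0.11, without passing (adjusted p = 0.127; over the alternatives 0.0335 to 0.958, under 0.05 only without the array block). With the probes of each gene averaged, the Lman1 difference was 0.20 (adjusted p = 0.459), and with the local trend subtracted it was 0.34. F9, the protease that F8 serves, differed by 0.36 (adjusted p = 0.499), F5 by 0.16, and Vwf, the carrier of factor VIII in blood, by 0.05 ± 0.37.

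Of 11 other anticoagulants 6 were measured, with a median of -0.09. Anxa5, which covers the phospholipid surface that clotting needs, had 12.98, 12.91, 12.94 and 13.19 in low salt mice, against 12.75, 12.65, 12.69 and 12.66 in normal salt mice, a difference of 0.31 without overlap (adjusted p = 0.419). Protein C (Proc) differed by 0.03 and its cofactor protein S (Pros1) by -0.18. Entpd1 differed by -0.34 (adjusted p = 0.498; over the alternatives 0.0246 to 1, under 0.05 only with the low salt 3 and 4 array left out). Its signal was near background, and the difference was -0.89 with the processed signal and -0.03 with the background model fitted on all spots.

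Of 13 fibrinolysis genes 11 were measured, with a median of 0.02. Plgrkt, a membrane receptor for plasminogen, had 10.50, 10.32, 10.36 and 10.19 in low salt mice, against 10.17, 10.01, 9.57 and 9.41 in normal salt mice, higher by 0.55 ± 0.17 without overlap (adjusted p = 0.279; over the alternatives 0.0288 to 0.96, under 0.05 only with the normal salt 1 and 2 array left out). Its spot stood where the local difference between diets was 0.20; the Plgrkt difference was 0.36 with the local trend subtracted, 0.23 with the background model fitted on all spots and 0.25 with the normal salt 3 and 4 array left out. S100a10, a partner of annexin A2 in binding plasminogen, had 11.17, 11.55, 11.31 and 11.78 in low salt mice, against 11.89, 11.78, 11.89 and 11.98 in normal salt mice, a difference of -0.43 (adjusted p = 0.429). The urokinase receptor Plaur differed by -0.24. F2r, the main thrombin receptor and the only protease-activated receptor of 4 that passed the filter, differed by 0.08.

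**Figure D5:**
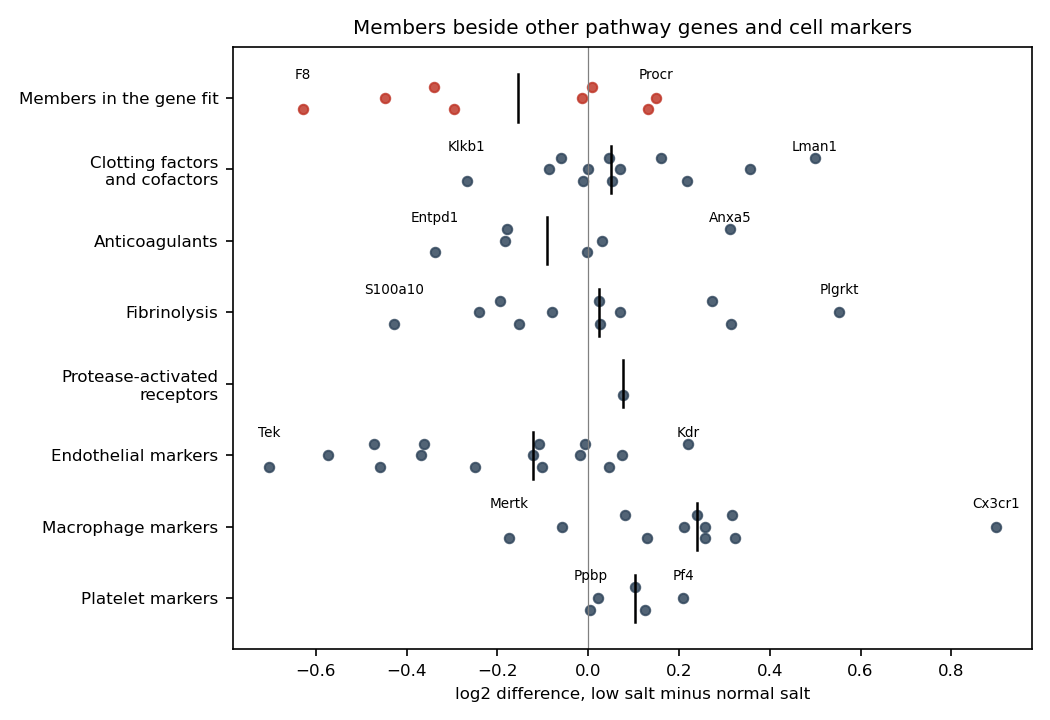
Log2 difference, low salt minus normal salt (horizontal axis), for the 8 tested genes, the other pathway lists and the endothelial, macrophage and platelet markers; each dot is a gene and each bar a list's median. F8 lies lowest of the pathway genes, the medians of the other pathway lists lie between -0.09 and 0.08, and macrophage markers have a median of 0.24.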

How the data were processed

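Per the labels, ventricle RNA was amplified with a T7 polymerase kit, and each sample took up Cy3 or Cy5. The deposited scanner files hold intensity per spot and channel, with local background, written by Agilent Feature Extraction 11.5.1.1 under protocol GE2_1105_Oct12, per the file headers. Its processed intensity was used as an alternative.

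The local background median was removed from the mean signal by normexp (offset 50). Where a background was flagged, the channel's median replaced it, and normexp was fitted on spots that were not flagged. Loess within arrays (controls at weight 0) and Aquantile between arrays followed, in limma 3.58.1 (R 4.3.3, statmod 1.5.0). Controls and flagged spots were dropped, spots of a probe averaged, and probes kept if they were well above background in 4 or more samples. The brightest probe stood for a gene. Of the probes, 27508 were named by accession, 3544 by gene name and 404 by synonym through the RefSeq gene table, and 7973 kept the file's name. Coordinates are those of the array design (mm9).

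The limma model held diet and dye, with array as a random block (correlation 0.557), eBayes, and Benjamini-Hochberg adjusted p over 18250 genes, 2-sided at 0.05. It was run on simulated data with planted differences larger than those of the 9 genes in this fit. That run does not show how the model treats differences of their size. The local trend was a median within 12 rows and 5 columns. Mice of the same number deviated together (correlations of 0.145 to 0.305, and of 0.194 and 0.106 for the contrasts within Cy3 and Cy5), so a replicate block was fitted; same-numbered mice also share a dye. The members and the gene lists were chosen with earlier results of these data known. Named were all 9 genes with all probes, Vwf, F5, Pros1, Proc, Plaur and F2r, the 2 smallest p-values of each other pathway list, and the 3 genes most like a gene; exceptions are marked, and 1 gene of this rule is not reported here. Of the other cell lists, median differences were -0.05 for fibroblast, -0.11 for smooth muscle and pericyte, -0.11 for ventricular cardiomyocyte, -0.03 for endocardium, 0.07 for lymphatic, -0.31 for mesothelium (1 gene), -0.22 for erythroid, -0.54 for atrial and 0.20 for hepatocyte markers, with 0 genes past the threshold. A deposited value table of the whole series was not used, since its rows could not be named.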

Additional observations from a re-analysis of the deposited data

Results flagged for a closer look

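Of 30 sets of 4 mice checked (15 probes in 2 diets), 1 held a mouse that stood apart. For F13a1 probe A_51_P507801, low salt mouse 2 had a log2 intensity of 10.6, and its gap to the next mouse was 0.854 of the range of the group. Such a check marks about 1 group in 20 by chance, and normal salt mouse 2, labelled with the same dye, was also the lowest of its group.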

How the results depend on the processing

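Under 29 alternatives no difference of a called result changed sign. The count of genes past the threshold (147) was 34 with the scanner's processed signal, 629 without the array block, 232 with the replicate block, 70 with the local trend subtracted and 14 in even parts alone. It was 0 with no normalization between arrays, with each array averaged, in Cy3 mice alone and in Cy5 mice alone, where limma gave 781, 1590, 1850 and 1265 genes at an unadjusted p under 0.05. Without each mouse in turn it was 53 to 129. With 1 array left out it was 81 (low salt 1 and 2), 1098 (low salt 3 and 4), 284 (normal salt 1 and 2) and 245 (normal salt 3 and 4); the fit with 1098 held 652 lower and 446 higher genes. Of the 140 genes that were higher in the model with all mice, 116 (82.9%) had their probe where the local difference between diets passed 0.2, as had 4.38% of all genes tested. The count of the 9 genes past the threshold (F8 alone) was 2 without the array block (F8 and Thbd) and with the low salt 3 and 4 array left out (F8 and Plat). It was 0 with the processed signal, normexp fitted on all spots, no normalization between arrays, quantile normalization, a filter on all 8 samples (which removed F8), arrays averaged, either dye alone, even parts alone, any mouse left out, or the array of low salt 1 and 2 or of normal salt 1 and 2 left out. The F8 difference kept its sign in all 28 alternatives that held it and stayed past the threshold in 10. Below it, the difference was -1.504 with the processed signal, -0.064 with normexp on all spots, -0.62 without normalization between arrays, -0.62 with quantile normalization, -0.63 with arrays averaged, -0.62 in Cy3 and -0.63 in Cy5 mice, -0.63 in even parts, -0.66 to -0.60 without each mouse, -0.62 with the low salt 1 and 2 array left out and -0.50 with the normal salt 1 and 2 array left out. Their adjusted p values ran up to 0.385. The cause of these changes was not tested, except that fewer samples or genes entered where some were left out. With the replicate block F8 remained the only one of the 9 genes past the threshold. The signal over background limits F8, Plau, the ordinary F10 probe and the second probes of F8 and F13a1. The Procr probe was dim too, though well above background in all 8 samples, and its difference also depended on the background removed.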
